A study of Rattus norvegicus with 24 samples.

Results

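Dorsal root ganglia (DRG) of rats with a contused spinal cord (CONT SCI) were compared with those of uninjured rats (No SCI) at the same collection time. The samples were chosen by group and collection time: the 6 CONT SCI and 4 No SCI samples, 10 of the 24 in the series, were all collected at 11.5 weeks. The other groups, collected at 8.5 or 13.5 weeks, counted from surgery, were not part of the comparison. All rats were female Sprague Dawley. CONT SCI rats had a laminectomy at T2 and an impact of 25 g-cm with the NYU Impactor at that level, and No SCI rats had no injury. Rats of both groups were housed in pairs within their group, and an injured rat from outside the study filled a place where deaths left an odd number. Standard cages came first, tiny cages that limited movement followed within days of the injury, and neither group was exercised. Each sample was polyA RNA from the T11-L4 ganglia of both sides of 1 rat, pooled, so the ganglia lay below the injury. Surgery and drugs given around it were part of the CONT SCI condition, and their effect cannot be told apart from that of the contusion. Whether cage mates share part of the variation was not tested, since the samples used here are not tied to cages.

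DRG hold the cell bodies of sensory neurons, each wrapped in satellite glia, together with Schwann cells, vessels, fibroblasts and immune cells. A sensory neuron has a peripheral axon branch and a central branch that enters the spinal cord, and some of the central branches climb toward the brainstem, so an injury far above a ganglion can reach part of its neurons. Changed excitability and sprouting of sensory neurons after spinal cord injury are known from earlier work and are tied to pain and autonomic dysreflexia.

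The total of reads counted on genes ranged from 29191327 to 33841979 in No SCI and from 30462475 to 38370849 in CONT SCI. The mean total was 33974709 ± 3447025 (SD, n = 6) in CONT SCI and 30797857 ± 2107854 (SD, n = 4) in No SCI (two-sided exact permutation test, p = 0.162, adjusted p = 0.648 over 4 library measures). The 10 most counted genes held 8.13% ± 0.537 (SD, n = 6) of the counts in CONT SCI and 7.94% ± 0.668 (SD, n = 4) in No SCI (exact permutation test, p = 0.610). The single most counted gene held 1.83% ± 0.390 and 1.77% ± 0.250 of the counts (exact permutation test, p = 0.819). A count was present for 17553 ± 87.1 genes in CONT SCI and 17529 ± 168 genes in No SCI (exact permutation test, p = 0.767). The adjusted p was 0.819 for each of the last 3 measures, and the smallest p these 210 regroupings allow is 0.00476. Totals overlapped between the groups.

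Of 14913 genes tested, 1418 (9.51%) differed between CONT SCI and No SCI at an adjusted p under 0.05 (edgeR quasi-likelihood test, Benjamini-Hochberg). Expression was higher in CONT SCI for 948 genes (6.36%) and lower for 470 (3.15%), so 66.9% of the genes called were higher, against 58.0% (800 higher, 579 lower) with upper quartile scaling. Of all genes tested, 1604 (10.8%) had values that did not overlap between the groups in CPM, the count scaled to the library's effective size. Of the genes called, 1206 (85.0%) did not overlap, 820 of them higher and 386 lower in CONT SCI. Calls and overlap come from the same values, so the second share is no separate support for the calls. Without No SCI replicate 2 the test called 835 genes and without No SCI replicate 4 it called 944, while limma voom with sample weights called 2347 on all 10 samples. In whole ganglia, fewer cells of a type and less RNA per cell cannot be told apart.

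Most of the differences were small. Among genes called higher, the log2 fold change had a median of 0.43 (1.35-fold), and the 10th and 90th percentiles were 0.23 and 1.00. Among genes called lower, the median was -0.39 (0.762-fold), with percentiles of -0.95 and -0.22. Only 139 of the genes called (9.80%) reached a log2 fold change of at least 1 in size, 95 higher and 44 lower. Of the 44, 21 are among 47 genes at -1.5 or below, described further on. Of those 47, 5 were called without No SCI replicate 2 and 6 without No SCI replicate 3. Over all genes tested the median log2 fold change was -0.0051 and the median standard error 0.093.

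The direction of the calls differed with abundance. Among 2122 genes with a mean of at least 100 CPM, 166 were higher and 15 lower in CONT SCI, and upper quartile scaling gave 137 and 21. Leaving out No SCI replicate 2 gave 99 higher and 10 lower in this class, and leaving out No SCI replicate 4 gave 107 and 11. Higher calls outnumbered lower calls in each of these fits. Among 7390 genes from 10 to 100 CPM, 596 were higher and 279 lower, against 497 and 359 with upper quartile scaling. Among 3937 genes from 1 to 10 CPM, 166 were higher and 141 lower, a direction that turned to 148 higher and 162 lower with upper quartile scaling. Below 1 CPM, 20 of 1464 genes were higher and 35 lower. Leaving out samples was counted only for the class from 100 CPM, so whether the counts of the lower classes rest on single samples was not tested. The error fell with abundance: the median standard error was 0.27 below 1 CPM and 0.068 from 100 CPM, and the median size of the log2 fold change of genes called was 1.14 and 0.31 in these classes.

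**Figure D1:**
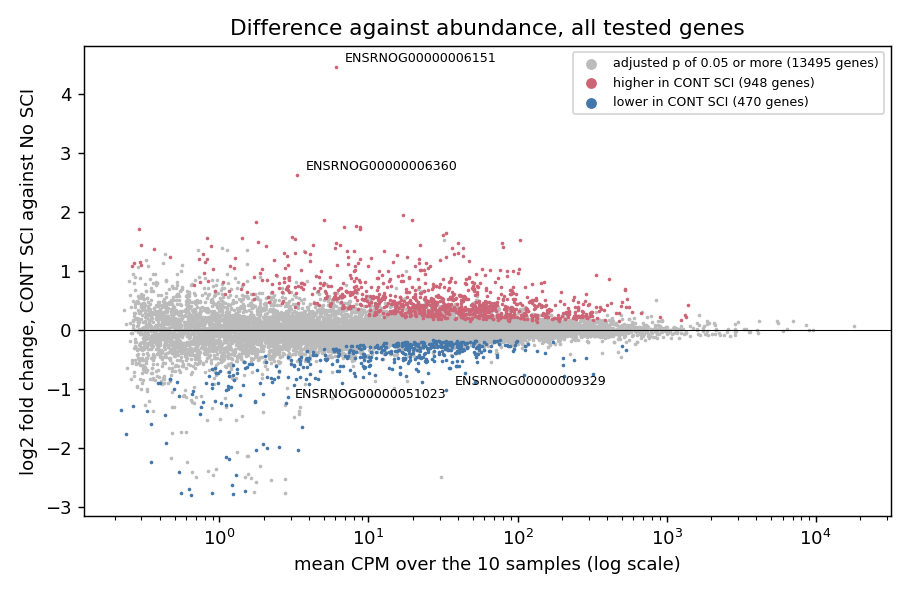
Each point is 1 of 14913 genes; the x axis is the mean CPM over the 10 samples on a log scale and the y axis the log2 fold change of CONT SCI against No SCI, with the 948 genes called higher in red and the 470 called lower in blue. Red points outnumber blue ones above 10 CPM, and a separate group of low genes, many in gray, lies near a log2 fold change of -2 or below.

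The deposited matrix gives genes by Ensembl identifier without symbols, so the genes below are given by identifier, with no statement of what they encode. They are the 2 largest rises and 2 largest falls among 1138 genes (794 higher, 344 lower) that were called, did not overlap between groups and had a mean log2 CPM of at least 1. That the groups did not overlap for them follows from this choice. ENSRNOG00000006151, ENSRNOG00000006360 and ENSRNOG00000051023 had means of 0.446, 0.795 and 1.82 CPM in their lower group. They lie below the abundance limit there and pass it only through the group where they are higher. Their fold changes and adjusted p describe chosen genes, and no further conclusion is drawn from them.

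ENSRNOG00000006151 was at 0.361, 0.503, 0.347 and 0.574 CPM in No SCI replicates 1 to 4, which are 11, 15, 12 and 17 counts. In CONT SCI its lowest CPM was 1.15, its median 10.7 and its highest 21.1. CONT SCI replicates 2 and 5 lay at 1.78 and 1.15 CPM, near the No SCI samples, and the other 4 at 9.22 or above, so CONT SCI samples differed 18.4-fold among themselves. The mean was 9.75 ± 7.53 CPM (SD, n = 6) against 0.446 ± 0.110 CPM (SD, n = 4), a log2 fold change of 4.44 ± 0.86 (SE; edgeR, adjusted p = 0.00601), higher in 6 of 6 samples. The adjusted p ranged from 2.39e-07 to 0.0900 over its alternatives, with 0.0686 in limma voom and 0.0900 in edgeR without No SCI replicates 2 and 3, both above 0.05.

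ENSRNOG00000006360 was at 1.22, 0.469, 1.16 and 0.338 CPM in No SCI replicates 1 to 4. In CONT SCI the lowest value was 1.33 CPM in replicate 2, the median 4.58 and the highest 8.93 in replicate 4. The lowest CONT SCI sample thus lay close to the highest No SCI sample, and replicates 3 and 4 were the highest CONT SCI samples for this gene. The mean was 4.98 ± 2.76 CPM (SD, n = 6) against 0.795 ± 0.456 CPM (SD, n = 4), a log2 fold change of 2.62 ± 0.52 (SE; edgeR, adjusted p = 0.00666; 8.30e-05 to 0.0729 over its alternatives, the highest without No SCI replicates 2 and 3). After these 2 genes, the next 10 eligible rises had log2 fold changes from 1.94 down to 1.56.

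ENSRNOG00000051023 was at 3.75, 4.29, 4.86 and 4.22 CPM in No SCI replicates 1 to 4. In CONT SCI the lowest value was 1.04 CPM, the median 1.65 and the highest 2.67. Values were lowest in CONT SCI replicate 5 and highest, within that group, in replicates 4 and 6. The mean was 1.82 ± 0.699 CPM (SD, n = 6) against 4.28 ± 0.455 CPM (SD, n = 4), a log2 fold change of -1.24 ± 0.24 (SE; edgeR, adjusted p = 0.00562; 1.40e-05 to 0.0730 over its alternatives, the highest without No SCI replicates 2 and 3).

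ENSRNOG00000009329 was the more abundant of the genes that fell, at 48.1, 48.5, 40.5 and 52.9 CPM in No SCI replicates 1 to 4. In CONT SCI the lowest value was 18.0 CPM, the median 21.5 and the highest 31.5. CONT SCI replicates 1 and 2 were the highest of their group, at 31.5 and 29.2 CPM, and the other 4 lay at 22.7 CPM or below. The mean was 23.4 ± 5.70 CPM (SD, n = 6) against 47.5 ± 5.14 CPM (SD, n = 4), a log2 fold change of -1.02 ± 0.15 (SE; edgeR, adjusted p = 0.00137; 2.51e-08 to 0.0243 over its alternatives). The next 10 eligible falls had log2 fold changes from -0.94 to -0.81.

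**Figure D2:**
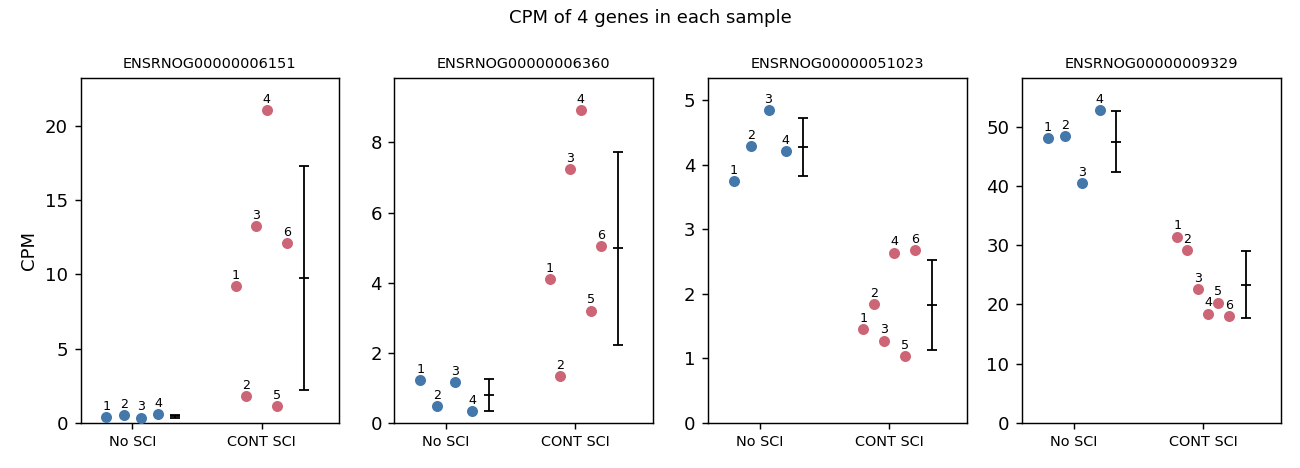
CPM (y axis, linear, from 0) of ENSRNOG00000006151, ENSRNOG00000006360, ENSRNOG00000051023 and ENSRNOG00000009329 in each No SCI (blue) and CONT SCI (red) sample, numbered by replicate, with the group mean ± SD in black. CONT SCI replicates 2 and 5 lie near the No SCI samples for ENSRNOG00000006151, at 1.78 and 1.15 CPM.

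Larger fitted falls than these existed, and for most of those at -1.5 or below 2 No SCI samples lay above the other 8 samples. Of all genes tested, 47 had a log2 fold change of -1.5 or below, a limit chosen after the values were seen, and 21 of the 47 were called. For 42 of the 47, No SCI replicates 2 and 3 both lay above each of the other 8 samples in CPM, and the highest sample was replicate 3 for 36 genes and replicate 2 for 6. The median CPM over the 47 genes was 3.42 and 3.76 in No SCI replicates 2 and 3, and 0.460 and 0.709 in No SCI replicates 1 and 4. In CONT SCI it ran from 0.124 in replicate 3 to 1.14 in replicate 6, the latter above No SCI replicates 1 and 4. The groups did not overlap for 3 of the 47 genes. Over all genes tested 9.51% were called and 10.8% did not overlap, but these genes were chosen by their fold, so nothing is read from their shares. Their median log2 fold change was -0.38 without No SCI replicates 2 and 3, when 3 of the 47 were called, and -3.16 without No SCI replicates 1 and 4, when 42 were called. These fits restate the levels above on genes chosen for their falls and are no separate test. Leaving out No SCI replicate 2 alone left 5 of the 47 called with a median log2 fold change of -2.02, and 42 of the 47 still at -1.5 or below. Leaving out No SCI replicate 3 alone left 6 called with a median of -1.75 and 40 at that limit, so calls were lost while the fitted falls stayed large. Without CONT SCI replicate 6, 39 of the 47 passed the filter on low counts and 35 were called, with a median log2 fold change of -2.67. Which cells carry these transcripts, and whether they belong to DRG or to other tissue, was not tested, since symbols of marker genes could not be matched to the rows.

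The largest rises had another distribution over samples. Of 19 genes with a log2 fold change of 1.5 or above, 18 were called and 17 did not overlap between the groups. Over all genes tested 9.51% were called and 10.8% did not overlap, but the choice by fold bears on these counts, so nothing is read from them. Their median CPM was 2.36 to 3.61 over No SCI samples and 7.84 to 12.3 over CONT SCI samples, lowest in CONT SCI replicates 1 and 2. Without No SCI replicates 2 and 3, 15 of the 19 were called and the median log2 fold change was 1.92. Without No SCI replicates 1 and 4, 11 were called, the median was 1.61 and 12 of the 19 still reached 1.5.

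**Figure D3:**
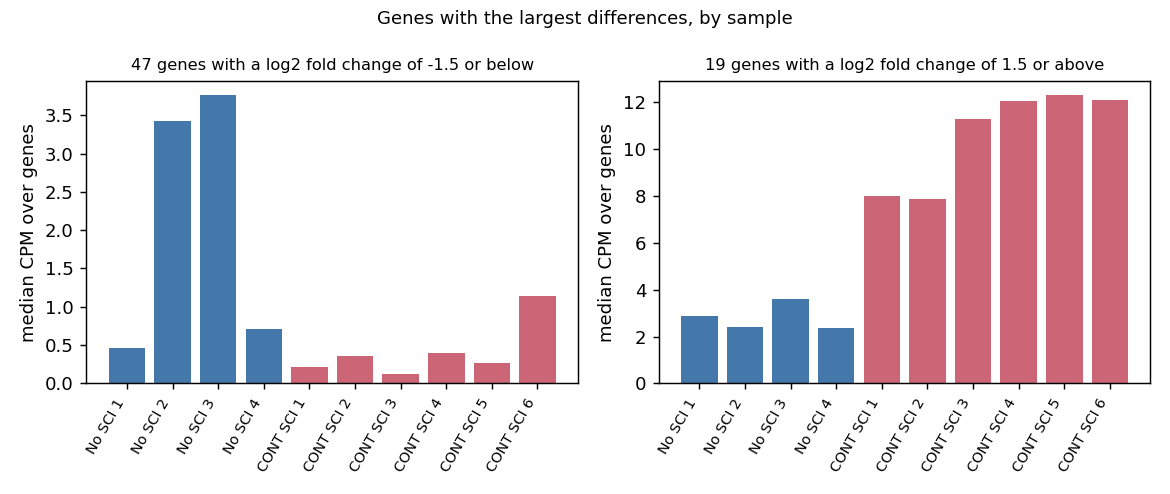
Bars give the median CPM (y axis, from 0) in each No SCI (blue) and CONT SCI (red) sample over the 47 genes with a log2 fold change of -1.5 or below (left) and the 19 genes with 1.5 or above (right). On the left No SCI replicates 2 and 3 reach 3.42 and 3.76 CPM while No SCI replicates 1 and 4 lie at 0.460 and 0.709. On the right every CONT SCI sample lies above every No SCI sample. The genes were chosen by their fold in these same samples, so the group difference is no separate result.

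The samples of a group also differed from each other over all genes tested. The median SD of log2 CPM was 0.155 over CONT SCI and 0.123 over No SCI samples. The SD over genes of the log2 difference between 2 samples was 0.288 to 0.417 within CONT SCI, 0.271 to 0.374 within No SCI and 0.333 to 0.505 between the groups, so the ranges overlapped. Over the 21 pairs within a group, the chi-square of the counts was at least 4.87 per gene. This checks only whether a library was entered more than once and says nothing of the spread between rats.

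On the first principal component of the 500 most variable genes (53.4% of their variance after the variance stabilizing transformation), No SCI samples lay from -10.3 to -5.99 and CONT SCI samples from 1.75 to 7.94. The second component (18.6%) did not separate the groups, with No SCI replicate 3 lowest at -7.47 and CONT SCI replicate 6 next at -4.20. With log2 normalized counts the groups overlapped on the first component, from -30.4 to 3.76 in No SCI and from -9.24 to 23.0 in CONT SCI.

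To read the direction of the calls in samples that took no part in making them, 1 CONT SCI and 1 No SCI sample were left out together and the remaining 8 fitted, for each of the 24 possible pairs. The fits called 544 to 1687 genes. Of these, 79.4% to 99.6% (median 97.3%) had the same direction between the 2 samples left out, while over all genes 46.4% to 53.1% were higher in the CONT SCI sample of the pair. The pairs reuse samples and are not independent, so no test was made. Genes are not independent within a pair either, so the shares do not count separate observations.

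The lowest shares belonged to pairs with No SCI replicate 3, at 79.4% with CONT SCI replicate 1 and 84.2% with CONT SCI replicate 2. With the other CONT SCI samples, No SCI replicate 3 gave 92.6% to 97.2%. For genes called lower the share ran from 70.9% (CONT SCI replicate 6 with No SCI replicate 1) to 98.8%, and for genes called higher from 77.9% to 99.8%. The median log2 difference of genes called higher was 0.17 to 0.70 over the pairs, and that of genes called lower ran from -0.69 to -0.18.

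**Figure D4:**
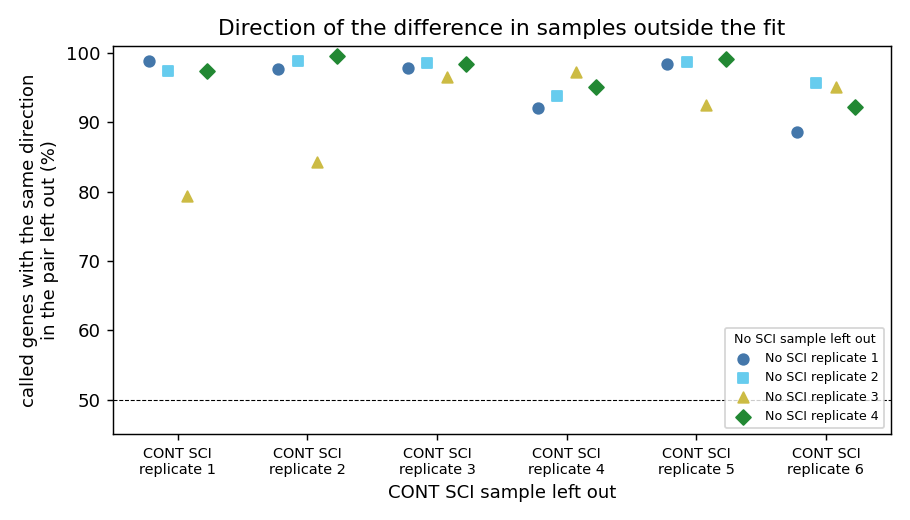
Each point is 1 of 24 pairs of a CONT SCI sample (x axis) and a No SCI sample (marker) left out of the fit, and the y axis, which does not start at 0, is the percent of genes called in the remaining 8 samples that had the same direction in the pair. All points lie at 79.4% or above, and the 2 lowest are those of No SCI replicate 3 with CONT SCI replicates 1 and 2; the dashed line marks 50%.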

How the data were processed

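PolyA RNA of whole DRG was sequenced, and the authors aligned single-end reads with STAR to Rn6, counted reads per gene with HTSeq 0.10.0 (per the labels, with FastQC 0.10.1) with strand taken into account, on an Ensembl annotation stripped of mitochondrial genes, and deposited raw counts for 24613 genes. Near-identical and overlapping genes are uncertain, since reads shared between them may go uncounted. Each column was matched to a sample by the group and replicate in its name.

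Counts of the 10 samples were analysed in R 4.3.3 with edgeR 4.0.16: filterByExpr (minimum count 10, minimum total 15), TMM scaling, glmQLFTest and Benjamini-Hochberg adjustment at 0.05. The filter left out 9700 rows. Standard errors were the size of the log2 fold change over the square root of F. Principal components used DESeq2 1.42.0. Alternatives included RLE and upper quartile scaling, DESeq2, limma 3.58.1 voom with sample weights, other filters, samples and thresholds, the replicate number as a block and each sample left out. Figures were drawn with Python 3.11.15 and matplotlib 3.10.9.

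The annotation table at hand (GRCr8, 47357 genes) matched 0 rows, so gene lists and cell type markers, which would check the tissue, were not analysed here. Named genes were the 2 largest rises and 2 largest falls that had no overlap between groups, a mean log2 CPM of 1 or more and an adjusted p under 0.05. Groups, lists and rules were chosen with earlier results of these data known. Fits without pairs of samples, and the classes by abundance and by largest difference, were chosen after the values were seen.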

Additional observations from a re-analysis of the deposited data

Results flagged for a closer look

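The most counted gene held 2.61% of the counts in CONT SCI replicate 4, far from the other CONT SCI samples, at 1.52% to 1.74%. Of 22 sets of values searched for a sample far from the rest, 1 held such a sample, and chance gives about 1 in 20, or 1.1 of the 22. Without this sample the test called 1499 genes, against 1418 with it.

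In the 3 groups that the comparison did not use, every sample lay above the No SCI samples for ENSRNOG00000006151, and for ENSRNOG00000006360 this held in TX SCI alone. The median CPM of ENSRNOG00000006151 was 0.869 in CONT SCI + SWIM, 3.99 in CONT SCI + SWW and 21.8 in TX SCI, and 10.8 in CONT SCI and 0.447 in No SCI on the same scale over 24 samples. For ENSRNOG00000006360 the median was 18.9 CPM in TX SCI and 4.63 in CONT SCI, and No SCI samples lay from 0.347 to 1.26. CONT SCI + SWIM, with a median of 1.37 and a lowest sample of 0.647, and CONT SCI + SWW, with 1.12 and 0.593, overlapped No SCI for this gene. For ENSRNOG00000006151 the lowest CONT SCI + SWIM sample, at 0.647 CPM, lay close to the highest No SCI sample, at 0.590. Both genes were chosen because CONT SCI lay above these same No SCI samples, which favours values above No SCI in other groups. The groups were collected at different times after injury (8.5 weeks in TX SCI, 13.5 weeks in the exercised groups), so the values stand side by side and no difference was tested.

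The genes that fell are given on the same scale, and they too were chosen against these No SCI samples. ENSRNOG00000051023 had a median of 2.89 CPM in CONT SCI + SWIM, 3.78 in CONT SCI + SWW and 3.62 in TX SCI, beside 1.68 in CONT SCI and 4.38 in No SCI, and samples of all 3 groups overlapped No SCI. ENSRNOG00000009329 had a median of 30.1 CPM in CONT SCI + SWIM, 16.1 in CONT SCI + SWW and 31.2 in TX SCI, beside 21.7 in CONT SCI and 49.9 in No SCI, and CONT SCI + SWIM and TX SCI overlapped No SCI.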

How the results depend on the processing

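Every fit that changed the scaling, the filter on low counts, the test or the samples called more genes higher than lower. RLE scaling gave 1436 calls, upper quartile scaling 1379, no filter 1368 and DESeq2 1845, of which 1404 were also called by edgeR in the same direction. Limma voom with sample weights called 2347, an adjusted p under 0.01 left 658 and a log2 fold change of at least 1 left 139, each over 1.5 times from 1418. Leaving out each sample in turn gave 835 (without No SCI replicate 2) to 1499 (without CONT SCI replicate 4), with 944 without No SCI replicate 4; 835 and 944 also pass that limit. Without No SCI replicates 2 and 3 together, chosen after the data were seen, 554 were called. With the replicate number as a block, 506 were called, 483 of them shared, and 505 over replicates 1 to 4 alone (985 there without the block); 554, 506 and 505 pass the same limit. The same-number correlation of deviations was -0.189 to 0.285, over 0.1 in 1 of 4 pairs. Of the 4 No SCI samples, 1 correlated best with its own number. So few pairs cannot show whether the numbers pair the samples.

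The 4 named genes kept their direction in 24 alternatives each. ENSRNOG00000006151 lost its call with limma voom (log2 fold change 3.26, adjusted p = 0.0686) and without No SCI replicates 2 and 3 (edgeR, adjusted p = 0.0900), where ENSRNOG00000006360 and ENSRNOG00000051023 lost theirs too (0.0729 and 0.0730). In that fit, with 2 No SCI samples left, their log2 fold changes were 4.37, 2.66 and -1.14, against 4.44, 2.62 and -1.24 over all samples, with standard errors of 1.25, 0.72 and 0.31, against 0.86, 0.52 and 0.24. The difference in total count kept its direction when 1 sample was left out, and the other 3 library measures turned: the share of the top 10 genes ranged from -0.00057 (without No SCI replicate 4) to 0.473 percentage points. The share of the top gene ranged from -0.0950 (without CONT SCI replicate 4) to 0.183 and was -0.00080 without No SCI replicate 2. Genes with a count ranged from -14.7 (without No SCI replicate 4) to 107, with -4.67 without No SCI replicate 1. The cause was not tested. The first principal component held 46.9% of the variance over 2000 genes and 41.2% with log2 normalized counts. Gene list alternatives were not run, for want of symbols. By abundance of the genes, the median standard error was 0.27 below 1 CPM and 0.068 from 100 CPM.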

Other observations

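The 47 genes with the largest fitted falls were also set beside the groups outside the 10 samples. Over 24 samples on 1 scale, the median CPM over these genes was taken in each sample. The median of these values over samples was 2.13 in No SCI, 0.315 in CONT SCI, 0.149 in CONT SCI + SWIM, 0.0830 in CONT SCI + SWW and 0.0862 in TX SCI. The lowest No SCI sample, at 0.477, lay below the highest sample of CONT SCI, of CONT SCI + SWIM and of CONT SCI + SWW, and above every TX SCI sample. The No SCI median lies between replicates 1 and 4, which were low, and replicates 2 and 3, which were high. It describes no single sample. The genes were chosen for a level in No SCI above that in CONT SCI, so lower values in other groups are no separate result. Collection times differ between these groups, and no difference was tested.

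Across genes, the deviations of No SCI replicate 3 from its group mean correlated with those of CONT SCI replicates 4 and 6 from theirs (r = 0.344 and 0.383). They correlated inversely with those of CONT SCI replicates 1 and 2 (r = -0.320 and -0.264). No SCI replicate 1 correlated inversely with CONT SCI replicate 6 (r = -0.294). Deviations from a group mean balance out within the group, so correlations of one sign bring others of the opposite sign and are no separate observation. The samples in each of these correlations share neither group nor replicate number, genes are not independent, and no p was computed.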
